A study of Homo sapiens with 3 samples.

Results

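The genes described here are the 4 ID genes (ID1, ID2, ID3 and ID4) and 6 genes of bone morphogenetic protein (BMP) signalling and its feedback: SMAD6, SMAD7, SMAD9, BMP4, GREM1 and BAMBI. They are 10 of 12307 genes compared, and they were read by 20 of 54613 probe sets. They were chosen by their symbols after earlier results of the same arrays had shown ID1 and ID3 to be higher with 1 of the siRNAs. The values that follow are therefore a description, and none of them is tested. The question was whether other BMP target genes and BMP antagonists differed along with the ID genes.

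RNA was taken from IMR-90 cells, a line of human fetal lung fibroblasts, 24 h after transfection with 1 of 3 siRNAs, and each RNA was read on 1 Affymetrix array. The control siRNA is labelled GL3. The siRNAs labelled SETD8-1 and SETD8-2, here SETD8 siRNA 1 and SETD8 siRNA 2, are directed against SETD8, the histone H4 lysine 20 methyltransferase now named KMT5A. The culture medium of all 3 held 10% fetal bovine serum. With 1 array per siRNA no value has a replicate error, no p-value is given, and an array stands for a group by itself.

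KMT5A had a signal of 938.9 with the control siRNA, 431.4 with SETD8 siRNA 1 and 584.1 with SETD8 siRNA 2 on its brightest probe set. These were 45.9% and 62.2% of control. All 4 of its probe sets were below the control with both siRNAs. The dimmer ones were at 68.6% to 74.7% of control with SETD8 siRNA 1 and 73.5% to 86.3% with SETD8 siRNA 2. All 10 fibroblast markers listed passed the filter on low signal, among them COL1A1 (33451.1, 36638.9 and 34357.1, in the order control, SETD8 siRNA 1, SETD8 siRNA 2, which is kept in every series of 3 values below). DCN, the gene of decorin, had 20075.4, 7745.9 and 22971.2, and LUM, the gene of lumican, had 13728.6, 10701.6 and 23797.7. Both were lowest with SETD8 siRNA 1, as ID2, NOG and RGMB were. COL3A1 (25413.6, 26989.2 and 17971.4) and FAP (3873.0, 4939.7 and 2534.6) had the opposite order, highest with SETD8 siRNA 1 and lowest with SETD8 siRNA 2. Of the 10 fibroblast markers, 4 were higher with SETD8 siRNA 2 than with SETD8 siRNA 1 and 6 were lower. None of 4 leukocyte markers passed. Of 8 endothelial markers 3 passed, with summed signals of 1360.0, 1540.3 and 2166.7. These were TEK (1251.3, 1274.8 and 2033.1), PECAM1 (49.0, 135.0 and 52.7) and VWF (59.7, 130.5 and 80.9), of which PECAM1 and VWF were 2.76-fold and 2.19-fold above the control with SETD8 siRNA 1. Of the markers that did not pass, CDH5, TIE1 and ESAM were between 1.5 and 4.9 on every array. KDR had 6.9, 27.1 and 3.6, and CLDN5 had 18.5, 12.6 and 18.1. Of 8 epithelial markers 3 passed, with sums of 379.9, 312.5 and 369.3, within which EPCAM had 157.1, 49.1 and 194.2 and SFTPB had 142.1, 194.7 and 127.7. Of 10 proliferation markers, 9 were at least 2-fold below the control for SETD8 siRNA 1 and all 10 for SETD8 siRNA 2. The part of these differences in the results below was not tested, and in RNA from whole cultures fewer cells of a kind and less RNA per cell cannot be told apart.

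BMP ligands bind paired type I and type II receptors, which phosphorylate SMAD1, SMAD5 and SMAD9, and these enter the nucleus with SMAD4. The ID genes are among the best known direct targets of this pathway. Their proteins have a helix-loop-helix but no basic region to bind DNA, and they hold E proteins and other basic helix-loop-helix factors in inactive pairs. SMAD6 and SMAD7 are inhibitory SMADs that the pathway induces and that act back on its receptors, BAMBI is a membrane pseudoreceptor without a kinase domain, and GREM1 and NOG encode secreted proteins that bind BMPs outside the cell. In fibroblasts ID1 is known as a repressor of the p16 gene and as a gene induced by serum.

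The 4 ID genes lie on different chromosomes, and the 250 bases before their RefSeq start sites are shown because these genes were all higher on the same array. The windows are from GRCh38.p14, at chr20:31605039-31605288 (plus strand) for ID1, chr2:8681806-8682055 (plus) for ID2, chr1:23559502-23559751 (minus) for ID3 and chr6:19837120-19837369 (plus) for ID4. Each is written 5′ to 3′ on the strand of the gene and ends at the base before the start site. Capitals mark CCAAT on either strand (ATTGG on the other) and TATAAA on either strand.
ID1: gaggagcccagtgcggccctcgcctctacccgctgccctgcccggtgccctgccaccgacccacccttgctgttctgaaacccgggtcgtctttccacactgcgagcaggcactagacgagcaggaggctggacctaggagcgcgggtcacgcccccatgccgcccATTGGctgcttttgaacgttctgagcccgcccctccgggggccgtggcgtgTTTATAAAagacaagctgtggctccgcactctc
ID2: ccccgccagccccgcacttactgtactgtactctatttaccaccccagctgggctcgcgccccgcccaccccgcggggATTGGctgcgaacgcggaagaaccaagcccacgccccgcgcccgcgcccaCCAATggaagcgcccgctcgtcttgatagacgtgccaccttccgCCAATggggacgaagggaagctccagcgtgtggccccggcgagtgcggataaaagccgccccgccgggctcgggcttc
ID3: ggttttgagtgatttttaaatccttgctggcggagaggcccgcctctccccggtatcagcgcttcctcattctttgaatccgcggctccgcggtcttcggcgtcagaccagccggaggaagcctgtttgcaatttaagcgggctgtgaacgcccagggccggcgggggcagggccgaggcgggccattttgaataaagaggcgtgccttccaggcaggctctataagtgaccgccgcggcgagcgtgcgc
ID4: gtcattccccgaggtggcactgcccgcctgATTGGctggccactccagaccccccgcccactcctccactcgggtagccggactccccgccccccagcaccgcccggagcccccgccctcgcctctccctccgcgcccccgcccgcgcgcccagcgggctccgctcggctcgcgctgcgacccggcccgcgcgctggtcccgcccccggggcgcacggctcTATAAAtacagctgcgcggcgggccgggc

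CCAAT, the box bound by the NF-Y factor, was found in 3 of the 4 windows: once in ID1, 3 times in ID2 and once in ID4. Of all 35116 RefSeq promoter windows of this length, 32.0% hold it. TATAAA was found in ID1, where the matches on the 2 strands overlap, and in ID4, and 10.7% of all windows hold it. GGCGCC, a GC-rich form of the sites bound by SMAD1 and SMAD5, is in none of the ID windows and in 16.4% of all windows, and GTCTG, which holds the SMAD-binding core, is in ID3 and ID4 and in 38% of all windows. All 10 genes had windows in the table, 15 in all, and GGCGCC was found in 3 genes, BMP4, GREM1 and BAMBI. The known BMP-responsive element of ID1 lies further upstream than these windows reach, and CCAAT was added to the search after the sequences had been read.

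All 4 ID genes were higher on the SETD8 siRNA 2 array than on both other arrays. ID1 had a signal of 1649.8 with the control siRNA, 1764.1 with SETD8 siRNA 1 and 9883.9 with SETD8 siRNA 2. The control and SETD8 siRNA 1 arrays thus lay close together, and the SETD8 siRNA 2 array stood 5.99-fold above the control. Of all 12307 genes, 43 had a larger increase with SETD8 siRNA 2 than ID1. ID3 had the same order of arrays, with 1492.5, 1778.3 and 5529.8, which is 3.71-fold above the control with SETD8 siRNA 2 and 1.19-fold with SETD8 siRNA 1.

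ID2 differed from ID1 and ID3 on the SETD8 siRNA 1 array, where it was below the control. Its brighter probe set had 2546.3, 1034.1 and 7136.9, so that SETD8 siRNA 1 was 2.46-fold below the control and SETD8 siRNA 2 stood 2.80-fold above it. Its other probe set had 1187.3, 239.3 and 4298.3, with wider gaps in the same directions (4.96-fold lower and 3.62-fold higher). On both, the 3 arrays were in the same order, and the gap between the siRNAs was 6.90-fold on one and 18.0-fold on the other.

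ID4 was read by 5 probe sets. Its brightest probe set had 82.0, 64.0 and 406.0, which is 4.95-fold above the control with SETD8 siRNA 2. Among the other 4 ID4 probe sets, 3 were under the filter, and their signals on the SETD8 siRNA 2 array were 5.10-fold, 1.78-fold, 1.43-fold and 2.15-fold above the control. The increase thus had 1 direction on all 5 probe sets and a size that depended on the probe set. With SETD8 siRNA 1, ID4 was below the control on 4 of the 5 and above it on the dimmest (14.2 against 20.5).

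**Figure D1:**
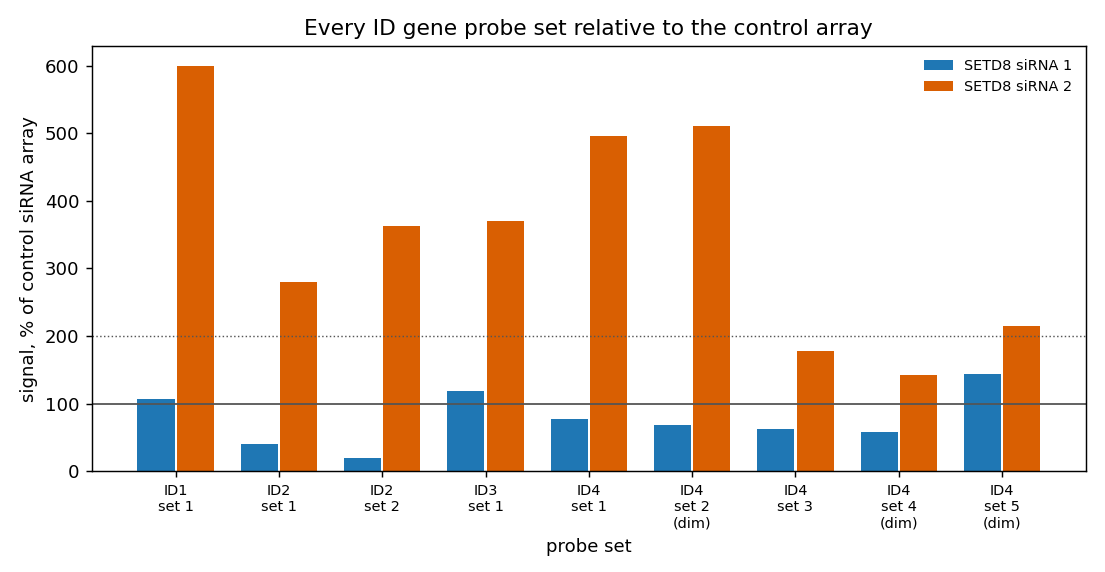
Signal of each of the 9 ID gene probe sets as a percentage of its own signal on the control siRNA array (solid line at 100%, dotted line at 200%), with 1 array per bar and no error bar; "dim" marks the 3 probe sets under the filter on low signal. All 9 were highest with SETD8 siRNA 2, from 143% of control for an ID4 probe set to 599% for ID1, and 6 of the 9 were below the control with SETD8 siRNA 1.

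Among all genes tested, the middle 90% of log2 fold changes with SETD8 siRNA 2 ran from -1.17 to 0.94, and those of the ID genes were 2.58 (ID1), 1.49 (ID2), 1.89 (ID3) and 2.31 (ID4). Set against genes in the same quartile of signal, 0.0650% had an increase as large as that of ID1, 0.650% as that of ID2, 0.162% as that of ID3 and 1.30% as that of ID4. ID4 is in the lowest of these quartiles. ID1 and ID3 were known to be high with SETD8 siRNA 2 when the set was made. Nothing is therefore read from these shares or from the rank of ID1 given above. With SETD8 siRNA 1 the ID genes had 0.10, -1.30, 0.25 and -0.36, and the middle 90% of all genes ran from -1.26 to 1.06, so that ID2 was the ID gene outside that range.

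The inhibitory SMADs were higher with both siRNAs. SMAD7 had 348.4 with the control siRNA, 914.7 with SETD8 siRNA 1 and 1661.7 with SETD8 siRNA 2, or 2.63-fold and 4.77-fold above the control. It was the member of the set with a 2-fold increase on both arrays, whereas ID1 and ID3 were within 1.20-fold of the control with SETD8 siRNA 1. SMAD6 had 221.6, 340.9 and 481.2 on its brightest probe set, or 1.54-fold and 2.17-fold above the control. Its 3 other probe sets were dim, with 33.3 as their highest signal on any array, and on these the SETD8 siRNA 1 array was the highest of the 3 arrays.

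SMAD9, the least studied of the SMADs that BMP receptors phosphorylate and itself a BMP target, was low with SETD8 siRNA 1. Its bright probe set had 1242.8, 302.2 and 1592.5, so that SETD8 siRNA 1 was 4.11-fold below the control and SETD8 siRNA 2 was 1.28-fold above it. The control and SETD8 siRNA 2 arrays lay close together. Its other probe set had 2.0, 2.4 and 21.2, which is at or near background on every array, so no fold is given for it.

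The ligand BMP4 had the opposite order of arrays to ID2. Its 1 probe set had 407.3, 910.0 and 165.7, or 2.23-fold above the control with SETD8 siRNA 1 and 2.46-fold below it with SETD8 siRNA 2. The array with the highest ID1, ID2, ID3 and ID4 signal was thus the one with the lowest BMP4 signal. GREM1, a secreted BMP antagonist, was among the brightest probe sets of the arrays, with 25769.7, 21998.9 and 16979.4 on one probe set and 24120.7, 20932.6 and 17812.7 on the other. With SETD8 siRNA 2 these were 65.9% and 73.8% of control, a difference under 2-fold at signals where the array response may be compressed. BAMBI had 733.5, 884.9 and 1184.2, or 1.21-fold and 1.61-fold above the control, and was also under 2-fold.

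**Figure D2:**
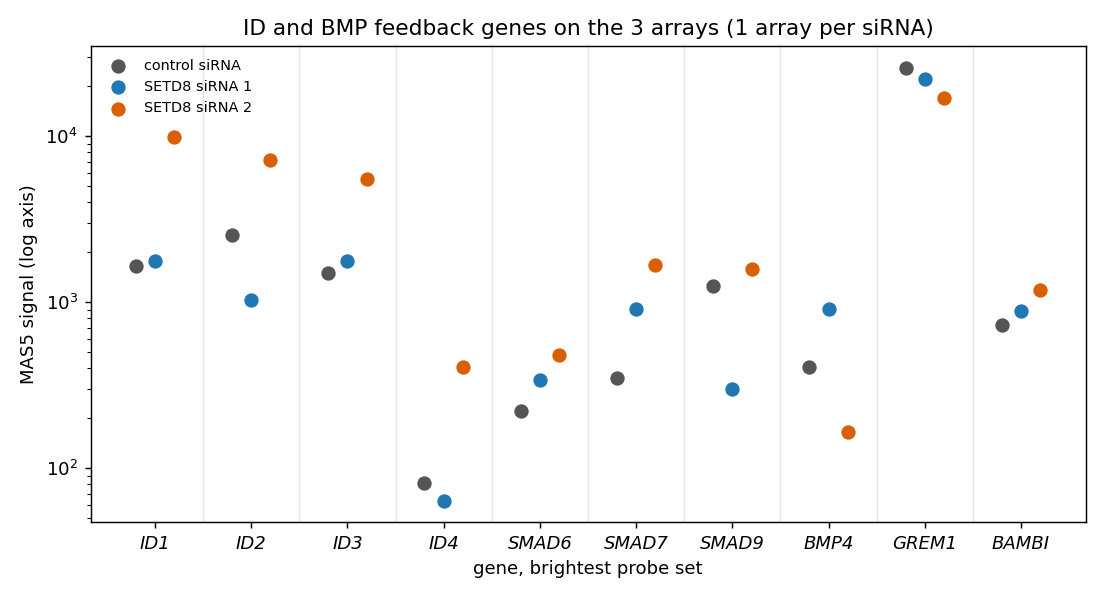
Deposited signal (log axis) of the brightest probe set of each gene on the control siRNA, SETD8 siRNA 1 and SETD8 siRNA 2 arrays, 1 point per array and no error bar. The SETD8 siRNA 2 point is the highest for the 4 ID genes, SMAD6, SMAD7, SMAD9 and BAMBI, and the lowest for BMP4 (165.7) and GREM1 (16979.4).

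Counted at 2-fold on the brightest probe set, 6 of the 10 genes were higher with SETD8 siRNA 2 (the 4 ID genes, SMAD6 and SMAD7) and 1, BMP4, was lower, where 4.46% of all 12307 genes were higher and 6.65% lower. For SETD8 siRNA 1, 2 were above the control (SMAD7 and BMP4) and 2 below it (ID2 and SMAD9), as were 5.48% and 7.75% of all genes. With SETD8 siRNA 2 set against SETD8 siRNA 1, 5 were higher (the 4 ID genes and SMAD9) and BMP4 was lower, where 6.18% and 6.38% of all genes were. The median log2 fold change of the 10 genes was 0.17 with SETD8 siRNA 1 and 1.30 with SETD8 siRNA 2, beside -0.02 and -0.01 over all genes. Since ID1 and ID3 were known to be high with SETD8 siRNA 2 when the set was made, nothing is read from these shares. Both comparisons with the control use the same control array, so their values are not independent of each other. ID1, ID2, ID3, BMP4 and the bright SMAD6 signal come from probe sets with the suffix _s_at or _x_at, which can bind more than 1 transcript. Without such probe sets 5 of the genes were left. Of these, 2 (ID4 and SMAD7) were at least 2-fold higher with SETD8 siRNA 2, beside 4.78% of all genes.

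Among 14 further BMP ligand genes, 6 passed the filter. BMP2, a ligand of the same subgroup as BMP4, had 1034.5 with the control siRNA, 17049.2 with SETD8 siRNA 1 and 1370.8 with SETD8 siRNA 2, or 16.5-fold and 1.33-fold above the control. Its other probe set had 653.8, 16037.0 and 1045.7, so the SETD8 siRNA 1 array stood alone on both. The array with the highest BMP2 and BMP4 signals was therefore not the array with the highest ID signals. On it ID2 and SMAD9 were below the control, and ID1 and ID3 were 1.07-fold and 1.19-fold above it. SMAD7 was 2.63-fold above the control there, and HEY1, another BMP target described below, 11.8-fold. The part of the ligands in any of these values was not tested. GDF5, a ligand of joint and cartilage development, had 219.0, 39.0 and 86.3 and was lower with both siRNAs. At 2-fold, SETD8 siRNA 1 had 1 ligand gene above the control and 1 below it, beside 5.48% and 7.75% of all genes. SETD8 siRNA 2 had 0 above and 1 below, beside 4.46% and 6.65% of all genes.

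Among 12 receptor and co-receptor genes, 10 passed. BMPR2, the type II BMP receptor, had 4325.5, 5202.9 and 6218.3, and the type I receptor gene ACVR1 had 3766.0, 4257.1 and 3903.7, so neither reached 2-fold with either siRNA. ACVRL1, a type I receptor best known from endothelium, had 95.5, 623.1 and 167.1 and was 6.52-fold above the control with SETD8 siRNA 1. On its other probe set, with 72.1, 177.7 and 45.1, the SETD8 siRNA 1 array was again the highest and SETD8 siRNA 2 was below the control. The endothelial markers PECAM1 and VWF were also highest on that array. TEK, the brightest endothelial marker that passed, was highest with SETD8 siRNA 2 instead (1251.3, 1274.8 and 2033.1). The part of endothelial RNA in the ACVRL1 difference was not tested. RGMB, a BMP co-receptor, had 2928.9, 780.3 and 5786.5, so that SETD8 siRNA 1 was 3.75-fold below the control and SETD8 siRNA 2 was 1.98-fold above it. This was the order of arrays seen for ID2 and SMAD9, and SETD8 siRNA 1 was the lowest array on all 4 RGMB probe sets. TGFBR3, the co-receptor betaglycan, was lower with both siRNAs (956.2, 356.5 and 476.8), by 2.68-fold with SETD8 siRNA 1 and by 2.01-fold, at the edge of the threshold, with SETD8 siRNA 2. ACVR2B had 160.5, 242.2 and 84.0, with no common direction over its 3 probe sets. At 2-fold, 1 of the 10 was above the control and 2 were below it for SETD8 siRNA 1, beside 5.48% and 7.75% of all genes. For SETD8 siRNA 2, 0 were above and 1, TGFBR3, was below, beside 4.46% and 6.65% of all genes. BMPR1A is not analysed here.

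All 12 SMAD transducers and regulators passed. SMAD1, a transducer that BMP receptors phosphorylate, had 2129.9, 6164.7 and 655.8, or 2.89-fold above the control with SETD8 siRNA 1 and 3.25-fold below it with SETD8 siRNA 2. Its second probe set had 808.4, 2389.1 and 299.8, with the arrays in the same order. SMAD1 thus had the order of BMP4 and not that of the ID genes. SMAD5, its close relative, had 3471.1, 3235.6 and 2539.2, and the shared partner SMAD4 had 1804.7, 1419.6 and 1333.3, neither of them 2-fold apart. SKIL, a repressor of SMAD activity that TGF-beta induces, had 2488.0, 4975.4 and 5099.9 and was close to 2-fold above the control on both arrays. SMURF2, a ubiquitin ligase that SMAD7 brings to receptors, had 16712.9, 17300.3 and 24347.3. STRAP, which binds SMAD7, had 13754.3, 14403.1 and 13908.0. At 2-fold, SMAD1 was the 1 gene of the list above the control for SETD8 siRNA 1 and the 1 below it for SETD8 siRNA 2. SKIL was the 1 above for SETD8 siRNA 2, at a log2 fold change of 1.04 that was 0.76 when its probe sets were averaged. Of all genes, 5.48% were higher and 7.75% lower for SETD8 siRNA 1, and 4.46% and 6.65% for SETD8 siRNA 2.

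Of 16 further BMP antagonists and modulators, 9 passed. At 2-fold on the brightest probe set, 4 of them were above the control and 0 below it for SETD8 siRNA 2, beside 4.46% and 6.65% of all genes. For SETD8 siRNA 1, 1 was above and 1 below, beside 5.48% and 7.75% of all genes. The difference between the siRNAs was not tested. NOG, which encodes noggin and is itself induced by BMPs, had 689.6, 135.4 and 4505.9 on its 1 probe set. SETD8 siRNA 1 was thus 5.09-fold below the control and SETD8 siRNA 2 stood 6.53-fold above it, the order of arrays seen for ID2. BMPER, a secreted modulator that binds BMPs, had 161.6, 117.5 and 841.8, with the SETD8 siRNA 2 array 5.21-fold above the control and the other 2 close together. FSTL3, a follistatin-like binder of activin, had the same order at 232.0, 190.1 and 601.4. NBL1, an antagonist of the DAN family, was higher on both arrays (329.2, 918.6 and 768.6). CRIM1, a membrane protein that holds BMPs, had 9436.2, 5178.4 and 11032.7, and its 3 probe sets had the same order of arrays. FST, which encodes follistatin, had 10133.5, 5109.9 and 6451.7, below the control on both arrays but under 2-fold. Another FST probe set had 1759.4, 664.2 and 582.0. With its probe sets averaged, FST had log2 fold changes of -1.15 and -1.03, past 2-fold with both siRNAs, so the counts of lower genes depend on the probe set. FSTL1 (19171.3, 17221.7 and 24903.7) and TWSG1 (15345.8, 14121.8 and 17587.2), the brightest of the list, were within 1.5-fold of the control. GREM1 differed from NOG and BMPER in being lowest with SETD8 siRNA 2.

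**Figure D3:**
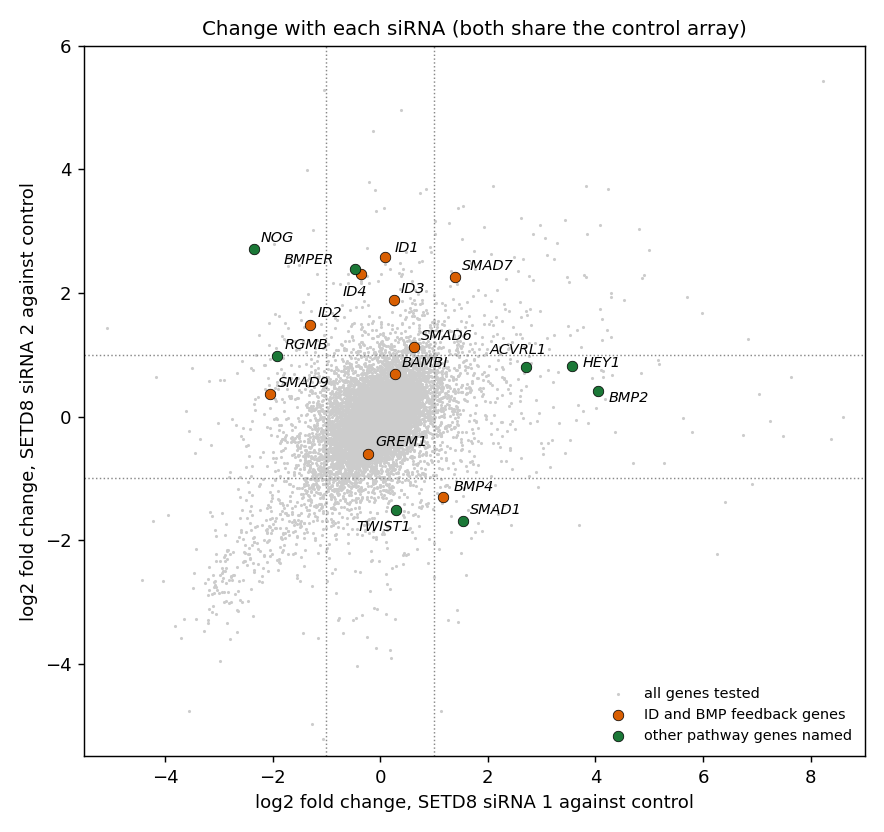
Log2 fold change with SETD8 siRNA 1 (horizontal) and SETD8 siRNA 2 (vertical), each against the 1 control array, for 12307 genes (grey), the 10 ID and BMP feedback genes (orange) and 8 other pathway genes (green), with dotted lines at 2-fold. ID1, ID3 and ID4 lie near 0 on the horizontal axis and above 1.8 on the vertical, NOG (-2.35 and 2.71) is to the upper left, BMP2 (4.04 and 0.41) to the far right, and BMP4 and SMAD1 are to the lower right.

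Of 15 other genes known as BMP targets, 11 passed. At 2-fold, 2 were above the control and 0 below it for SETD8 siRNA 1, beside 5.48% and 7.75% of all genes. For SETD8 siRNA 2, 1 was above and 1 below, beside 4.46% and 6.65% of all genes. The 1 above was ATOH8, which was below the control (-0.51 on the log2 scale) when shared probe sets were left out, and without ATOH8 the count is 0. HEY1, a transcriptional repressor induced by both Notch and BMP, had 123.9, 1467.1 and 219.6, or 11.8-fold and 1.77-fold above the control. HES1, a Notch target, had 152.1, 727.9 and 194.4. Both were thus highest with SETD8 siRNA 1. BMP2 was also highest on that array, and the part of BMP2 or of Notch in these values was not tested. ATOH8, a BMP-induced factor of endothelium and liver, had 61.7, 33.5 and 276.3 on its brightest probe set, the order of ID4. Its other probe sets (87.4, 100 and 61.5, and 132.5, 39.4 and 83.6) were below the control with SETD8 siRNA 2, so no direction is given for ATOH8. UNC5B, a netrin receptor, had 366.6, 611.8 and 141.0, and RUNX2, the osteoblast factor, had 1963.8, 3026.0 and 1432.3, both with the order of SMAD1 and BMP4. TNFRSF11B (9283.4, 11097.2 and 8825.2) and ZNF503 (1697.7, 2248.9 and 2238.9) were under 2-fold. The list's median log2 fold change was 0.41 with SETD8 siRNA 1 and 0.28 with SETD8 siRNA 2, beside -0.02 and -0.01 over all genes.

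SMAD7 is also a target of TGF-beta, whose receptors act through SMAD2 and SMAD3, and genes of that arm were listed for comparison. Of 15 listed, 14 passed. At 2-fold, 6 were above the control for SETD8 siRNA 1 and 2 for SETD8 siRNA 2, beside 5.48% and 4.46% of all genes. With either siRNA 0 were below it, beside 7.75% and 6.65% of all genes. PMEPA1, a feedback inhibitor of TGF-beta signalling, had 541.5, 1495.3 and 968.2, and all 3 of its probe sets were above the control on both arrays. The cytokine gene IL11 had 1142.0, 7625.8 and 1994.1, and BHLHE40 had 838.9, 3928.1 and 1690.7. PDGFB, a growth factor gene, had 84.3, 208.5 and 363.9, the order of SMAD7. JUNB (182.8, 434.1 and 341.5) and the oxidase gene NOX4 (469.8, 1139.7 and 665.1) were highest with SETD8 siRNA 1. The brightest genes of the list differed little, with TGFBI at 23515.6, 29834.8 and 28453.3. The list's median was 0.61 and 0.51, so it was above 0 on both arrays, as SMAD7 and SMAD6 were. The medians of the other BMP target genes (0.41 and 0.28) and of the receptor list (0.22 and 0.44) were also above 0 on both. The part of either arm in the SMAD7 and SMAD6 values was not tested.

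ID proteins act by binding basic helix-loop-helix factors, and of 13 such partners listed 6 passed. TWIST1, a factor of mesenchymal cells, had 2784.5, 3420.1 and 979.5 and was 2.84-fold below the control with SETD8 siRNA 2. Among the E protein genes, TCF12 had 5539.6, 4864.0 and 2839.8, just under 2-fold lower with SETD8 siRNA 2, and TCF4 had 4561.8, 4962.6 and 4938.9. With its probe sets averaged, dim ones included, TCF12 had a log2 fold change of -0.05 with SETD8 siRNA 2. No partner gene was at least 2-fold higher with either siRNA, beside 5.48% and 4.46% of all genes. With 6 genes, nothing is read from that absence. The partner list had a median of 0.15 with SETD8 siRNA 1 and -0.42 with SETD8 siRNA 2, against -0.13 and 2.10 for the ID genes.

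**Figure D4:**
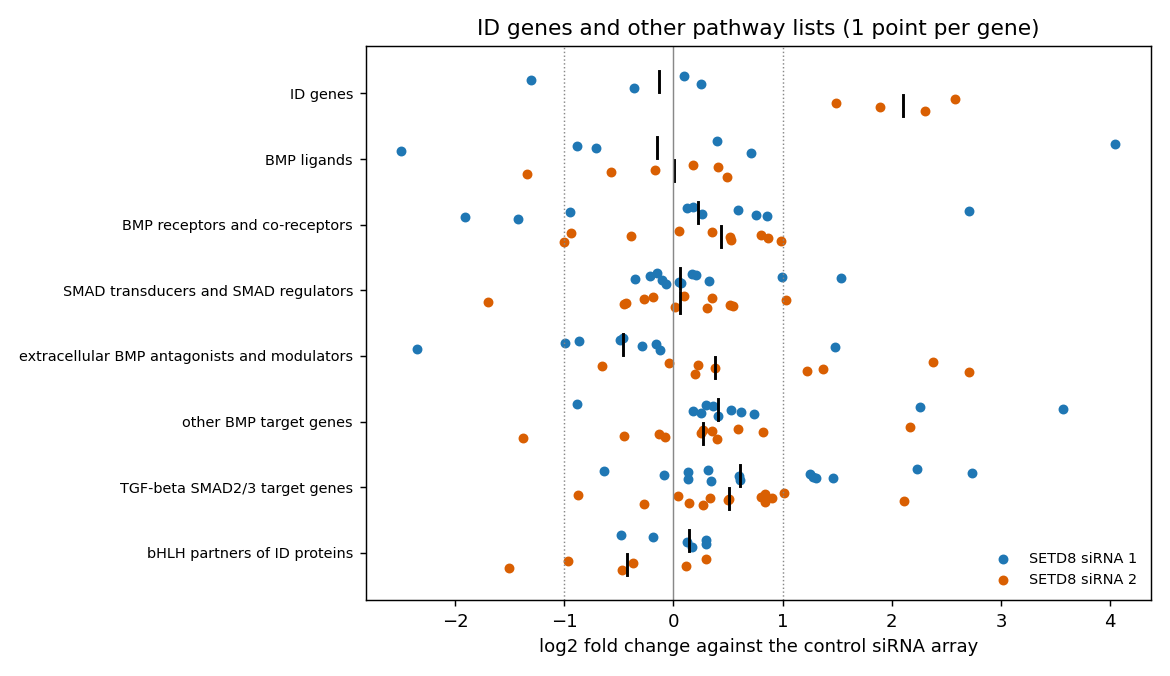
Log2 fold change against the control array for each gene that passed the filter, 1 point per gene, by list and siRNA, with a black bar at the median and dotted lines at 2-fold. The ID gene points with SETD8 siRNA 2 all lie above 1.4, with a median of 2.10, while the medians of the other lists lie between -0.46 and 0.61.

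The genes most like ID1 and ID3 were found by the distance between their pairs of log2 fold changes, which rest on 3 arrays. For ID1 they were SYT16, KCTD4, SLC1A1, PLAAT1 and PSG2, at distances from 0.12 to 0.37. SYT16 had 104.3, 110.7 and 576.0 and SLC1A1, a glutamate transporter gene, had 219.9, 222.8 and 1091.3. For ID3 they were ATCAY, PLXNA2, PCDHB2, DUSP1 and SELENOW, at distances from 0.070 to 0.21. Of these, DUSP1, an immediate early gene encoding a MAP kinase phosphatase, had 3198.4, 3711.7 and 10375.2, and the selenoprotein gene SELENOW had 2042.2, 2631.9 and 8529.3. Most of the others were dim, with control signals from 28.6 to 104.3.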

How the data were processed

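The authors deposited a linear intensity for every probe set of each array. The submitters' processing notes name MAS5, and neither its version nor its scaling target is given in the sources used here. Biotin-labelled cRNA came from 250 ng of total RNA, per the labels' protocols. The medians of the 3 arrays were 44.9 to 46.2, so no scaling was added, and detection calls were not used. Of the probe sets, 41091 had 1 gene symbol in GEO's platform annotation and 1801 had several and were left out. Symbols were updated by gene number to RefSeq on GRCh38.p14 (41037 matched), which is also the source of the promoter windows.

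For log2 fold changes, any signal below 11.7, which is the 25th percentile across the arrays, was raised to that floor. A gene was represented by its brightest probe set and kept if its mean log2 signal reached 5.39, the median over probe sets. All 10 genes and 13 of their 20 probe sets passed. Folds of single probe sets printed beside signals are plain ratios. Genes were counted at 2-fold. With 1 array per siRNA no test was possible. Precision is limited by the number of arrays, and the spread between cultures is unknown. The counting steps were tested on simulated data.

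The members and lists were chosen with earlier results of these data known. The rule for named genes gave the members, KMT5A, up to 6 genes per pathway list at least 2-fold apart in any comparison, the 2 brightest of each list, 13 fixed genes and the 5 genes nearest to ID1 and to ID3. Genes named outside it, as markers or examples, were chosen after their values were seen. Python 3.11.15, numpy 2.4.6, pandas 2.3.3 and matplotlib 3.10.9 were used.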

Additional observations from a re-analysis of the deposited data

Results flagged for a closer look

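ID2 and BMP4 were at least 2-fold from the control array in opposite directions with the 2 siRNAs. The log2 fold changes of ID2 were -1.30 (SETD8 siRNA 1) and 1.49 (SETD8 siRNA 2), and those of BMP4 were 1.16 and -1.30 in that order. Each siRNA has 1 array and the difference was not tested. Of all 12307 genes, 82 (0.666%) were apart in this way.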

How the results depend on the processing

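The log2 fold changes of the 10 genes kept their direction in all 3 comparisons under median scaling, quantile normalization, a pseudocount of 16, no filter, a stricter filter (75th percentile), averaging of probe sets and removal of shared probe sets, as far as each gene could be read there. The filter settings only add or drop genes and cannot change a value, and averaging cannot change a gene with 1 probe set. Removal of shared probe sets kept the same probe set for each gene left. Many of the 183 values under these settings were therefore fixed in advance. Of the 183, 180 were within 1.5-fold of the value reported. The others came from averaging probe sets: ID2 between the siRNAs (3.48 in place of 2.79), and SMAD9 with SETD8 siRNA 1 (-1.02 in place of -2.04) and between the siRNAs (1.63 in place of 2.40). Without shared probe sets 5 genes could be counted. At 2-fold, SETD8 siRNA 1 then had 1 above the control and 1 below it (5.71% and 7.98% of all genes). SETD8 siRNA 2 had 2 above and 0 below (4.78% and 6.71%). Between the siRNAs, SETD8 siRNA 2 had 2 above SETD8 siRNA 1 and 0 below (6.81% and 6.69%). At 3-fold, SETD8 siRNA 1 had 0 above and 1 below (2.48% and 3.20% of all genes), and SETD8 siRNA 2 had 4 above in place of 6 and 0 below (1.41% and 2.93%). At 1.5-fold, SETD8 siRNA 2 had 2 below (14.7%). Among pathway genes, ATOH8 with SETD8 siRNA 2 had -0.51 without shared probe sets in place of 2.16. Other 2-fold calls with SETD8 siRNA 2 that were lost were TGFBR3 (lost under median scaling, quantile normalization, the pseudocount and averaging, at its weakest -0.94), SKIL (0.76 on averaging) and BHLHE40 (from 1.01 to just under 2-fold with the pseudocount). Between the siRNAs, ACVR2B (-0.05 in place of -1.53) and BHLHE40 (-0.81 in place of -1.22) were lost on averaging and GDF5 (0.90 in place of 1.15) with the pseudocount. Calls could also be gained. On averaging, FST passed 2-fold lower with SETD8 siRNA 1 (-1.15 in place of -0.99) and SETD8 siRNA 2 (-1.03 in place of -0.65). At its highest, RGMB with SETD8 siRNA 2 had 1.02 in place of 0.98, and SKIL with SETD8 siRNA 1 had 1.03 in place of 0.9998. TCF12 with SETD8 siRNA 2 reached -1.002 in place of -0.96, but was -0.05 on averaging. Between the siRNAs, NOX4 reached -1.07 in place of -0.78 and SMURF2 reached 1.02 in place of 0.49. The 2-fold counts of the lists therefore depend on the setting. No paired analysis was possible because each siRNA has 1 array. Signals near the floor may be background.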

Other observations

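A further probe set, annotated to both ID2 and the related locus ID2B and therefore not counted with the ID genes, had 82.3 with the control siRNA, 66.5 with SETD8 siRNA 1 and 330.3 with SETD8 siRNA 2. That is 1.24-fold below the control and 4.01-fold above it, the order of arrays of the ID2 probe sets.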
